A study of Mus musculus with 4 samples.

Results

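Genes that hold CD4 T cells in the naive, resting state were followed through RNA-seq count tables of mouse T helper 2 (Th2) cells. The 10 members, out of 50600 genes in each table, were picked by symbol. They are 6 transcription factor genes (Lef1, Tcf7, Foxo1, Foxp1, Bach2 and Satb1), the homing receptor gene Ccr7, and 3 non-coding antisense genes, Gm43352, Bach2os and Gm20402, whose rows lie on the strand opposite Lef1, Bach2 and Foxo1. Ccr7 is no transcription factor and stands among them as a surface gene of the same cell state. The samples were primary Th2 cells of strain C57BL/6NJ with 48 hours named in the file headers, and they formed 1 group of 4 libraries that are biological replicates by label. The labels give separate biosamples but 1 donor identifier, leave sex and age open, and name total RNA although the linked library protocol is for polyadenylated RNA. P-values below therefore speak only for these 4 samples, and with 1 group no member could be compared between conditions.

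As background, naive T cells circulate between blood and lymph nodes and do not divide. TCF-1 (the product of Tcf7) and LEF-1 bind DNA through an HMG box, partner with beta-catenin or Groucho corepressors, and keep T cells in a naive or memory-like state. FOXO1 activates genes of homing and survival such as Klf2, Il7r and Ccr7 until AKT signalling drives it out of the nucleus, and FOXP1 is a forkhead repressor needed for quiescence. BACH2 competes with AP-1 factors and represses effector genes, among them Th2 cytokine genes. SATB1 organizes chromatin loops, at the Th2 cytokine genes too, and CCR7 guides cells to lymph nodes along the chemokines CCL19 and CCL21.

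The libraries held 1785970 to 2271993 counts, each count being 1 read pair assigned to a gene on 1 strand. A count of 3, the most that a listed 0 still allows, was worth 1.32 to 1.68 CPM, a level scaled to the library total. The ribosomal RNA rows CT010467.1 and Gm42418 took 3.25% to 5.02% of counts in replicates 1 to 3 and 15.9% in replicate 4. Of all counts, 92.5% to 94.5% fell to genes with exon bases in common with an opposite-strand gene. Of the 50600 genes, 8189 have such an overlap. Among mitochondrial protein genes, 78.2% to 83.9% of counts lay in mt-Nd6, the gene on the strand opposite the other protein genes. Whether the strand setting used in counting matched the library kit was not tested. Every level below is thus the count assigned to a row, which need not be the amount of that gene's own transcript. In these bulk samples fewer cells of a type and less RNA per cell also cannot be told apart. Among cell type markers, 12 of 14 T cell identity genes reached 1 TPM (a level per exon length, scaled to the same total in every library) in all libraries, as did 21.8% of protein-coding genes, against 2 of 9 for B cells, 3 of 10 for dendritic cells and class II, 2 of 7 for macrophages and 0 of 8 for NK and CD8 T cells. Summed over each list, TPM ranged over the libraries from 252 to 319 for T cells, 3.44 to 9.5 for B cells, 11.2 to 16.3 for dendritic cells and class II, 192 to 205 for macrophages and 1.39 to 2.65 for NK and CD8 T cells. The T cell sum was mostly Cd247 (168 TPM ± 8.39, SD, n = 4), which shares 3007 bp with Pou2f1 (330, 267, 331 and 180 counts). The macrophage sum was nearly all Csf1r (196 TPM ± 5.16), whose exons overlap Hmgxb3. Hmgxb3 had 16, 9, 4 and 9 counts where Csf1r had 1409, 1363, 1457 and 1066. Defining markers at 0 in all 4 libraries included Ms4a1 and Pax5 of B cells, Itgax of dendritic cells, Adgre1 and Itgam of macrophages, and Ncr1 of NK cells. Other markers of these lists were detected on exons with no overlap, among them Cd79a (14, 8, 4 and 7 counts) and Ighm (9, 8, 4 and 3) of B cells and the class II genes Cd74 (11, 11, 16 and 4) and H2-Ab1 (9, 9, 10 and 12). The part of other cells in the members' counts was not tested.

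The stretches below are shown because the 2 rows of each pair claim the same bases and are told apart only by the strand of a read pair. Each line is a 60-base coding stretch of the shared part, read from the GENCODE vM21 transcript of the named gene, 5′ to 3′, with capitals marking the start codon of the coding gene or its complement. The Lef1 stretch is at chr3:131111472-131111531 (mm10, plus strand), the Foxo1 stretch at chr3:52268802-52268861 (plus strand) and the Bach2 stretch at chr4:32561778-32561837 (plus strand, inside the coding sequence, with no start codon), and the opposite rows read the same positions on the minus strand.
Lef1: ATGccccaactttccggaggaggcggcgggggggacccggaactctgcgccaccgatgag
Gm43352: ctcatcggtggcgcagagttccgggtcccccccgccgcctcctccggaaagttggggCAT
Foxo1: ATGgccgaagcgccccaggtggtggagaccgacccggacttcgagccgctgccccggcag
Gm20402: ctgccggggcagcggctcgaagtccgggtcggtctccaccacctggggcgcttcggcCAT
Bach2: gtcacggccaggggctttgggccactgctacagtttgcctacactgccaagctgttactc
Bach2os: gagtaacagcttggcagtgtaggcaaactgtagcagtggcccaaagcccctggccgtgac

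Lef1 lies on chromosome 3 (131110471 to 131224356, mm10, plus strand), and its row counted 147, 146, 164 and 104 read pairs in replicates 1 to 4. Gm43352 (131109026 to 131112090, minus strand) is a single exon of 3065 bp whose 5′ end lies at position 1619 and 3′ end at position -1445, in bp from the start of Lef1. It covers all of exon 1 of Lef1, 1208 bp, of which 207 bp are coding and 1001 bp untranslated. The Gm43352 row counted 1122, 1066, 1057 and 794. In every library the antisense row was the higher of the pair, and the 2 sets of values did not overlap.

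Gm43352 held 88.4% of the pair's counts in replicate 1 (95% Wilson interval 86.5 to 90.1), 88.0% in replicate 2 (86.0 to 89.7), 86.6% in replicate 3 (84.5 to 88.4) and 88.4% in replicate 4 (86.2 to 90.4). All 4 intervals overlapped, and the shares spanned less than 2 percentage points. The log2 ratio of Gm43352 over Lef1 counts was 2.85 ± 0.115 (SD, n = 4; exact two-sided sign-flip test, p = 0.13, adjusted 0.13 over 3 pairs), positive in 4 of 4 libraries. With 4 libraries this test cannot go below that p (rounded), here or anywhere below. Per exon length the difference was larger, at 238 TPM ± 6.84 for Gm43352 and 11.5 ± 0.936 for Lef1, since the Lef1 row has 8788 bp of exons.

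The 250 bases before the most upstream RefSeq start of Lef1 lie wholly within the Gm43352 row (chr3:131110047-131110296, GRCm38.p6, plus strand of Lef1), so read pairs assigned to the minus strand there fall to Gm43352. They are printed 5′ to 3′ with nothing marked, and 66.4% of them are G or C. RefSeq windows were found for 7 of the 10 members.
Lef1 promoter: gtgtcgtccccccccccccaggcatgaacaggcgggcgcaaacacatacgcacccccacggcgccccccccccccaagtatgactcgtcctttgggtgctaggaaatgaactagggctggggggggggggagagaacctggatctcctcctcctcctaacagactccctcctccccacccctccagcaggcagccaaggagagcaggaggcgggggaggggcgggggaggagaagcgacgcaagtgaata

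Foxo1, the forkhead factor of naive T cell homing, lies on chromosome 3 (52268336 to 52353221, plus strand) and counted only 2, 7, 5 and 3 read pairs, at or under the 3-count floor in replicates 1 and 4. Gm20402 (52268435 to 52269435, minus strand) has 687 bp of exons, and 98.1% of them (674 bp) lie in exon 1 of Foxo1, 307 bp over coding and 367 bp over untranslated sequence. Its row counted 353, 366, 404 and 208. The antisense row thus carried nearly the whole of the counts at this locus in each library, and it lies almost wholly inside that Foxo1 exon.

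The share held by Gm20402 was 99.4% in replicate 1 (95% Wilson interval 98.0 to 99.8), 98.1% in replicate 2 (96.2 to 99.1), 98.8% in replicate 3 (97.2 to 99.5) and 98.6% in replicate 4 (95.9 to 99.5). All 4 intervals overlapped. The log2 ratio over Foxo1 was 6.21 ± 0.666 (SD, n = 4; exact sign-flip p = 0.13, adjusted 0.13), positive in 4 of 4 libraries, and its size leans on the few Foxo1 counts: with 3 added to each count in place of 0.5 it was 5.54. In TPM, Gm20402 stood at 346 ± 57.0, the lowest value in replicate 4 (269), and Foxo1 at 0.355 ± 0.174. Foxo1 was the lowest of the 10 members in every library.

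Bach2, the repressor of effector genes, lies on chromosome 4 (32238804 to 32586108, plus strand) and counted 27, 31, 22 and 18 read pairs. Bach2os (32559680 to 32571708, minus strand) has 5 exon blocks in 2183 bp and sits far inside Bach2, its start 332904 bp past the Bach2 start. It shares 537 bp with Bach2 in 2 stretches, both within 1 coding exon (exon 3 of 5 in the GENCODE vM21 transcript used here), so all of the shared bases are coding. Bach2os counted 1593, 1825, 1879 and 1433, the most of any member in every library.

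Bach2os held 98.3% (97.6 to 98.9), 98.3% (97.6 to 98.8), 98.8% (98.3 to 99.2) and 98.8% (98.0 to 99.2) of the pair's counts (95% Wilson intervals). The log2 ratio over Bach2 was 6.09 ± 0.277 (SD, n = 4; exact sign-flip p = 0.13, adjusted 0.13), positive in 4 of 4 libraries. Its TPM was 482, 589, 585 and 583, so replicate 1 lay below the other libraries, which were close together. Only 24.6% of the Bach2os exons overlap Bach2, against 39.4% for Gm43352 over Lef1 and 98.1% for Gm20402 over Foxo1. The counts are totals per row, so where along a row they lay, and any link to the overlap, was not tested.

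**Figure D1:**
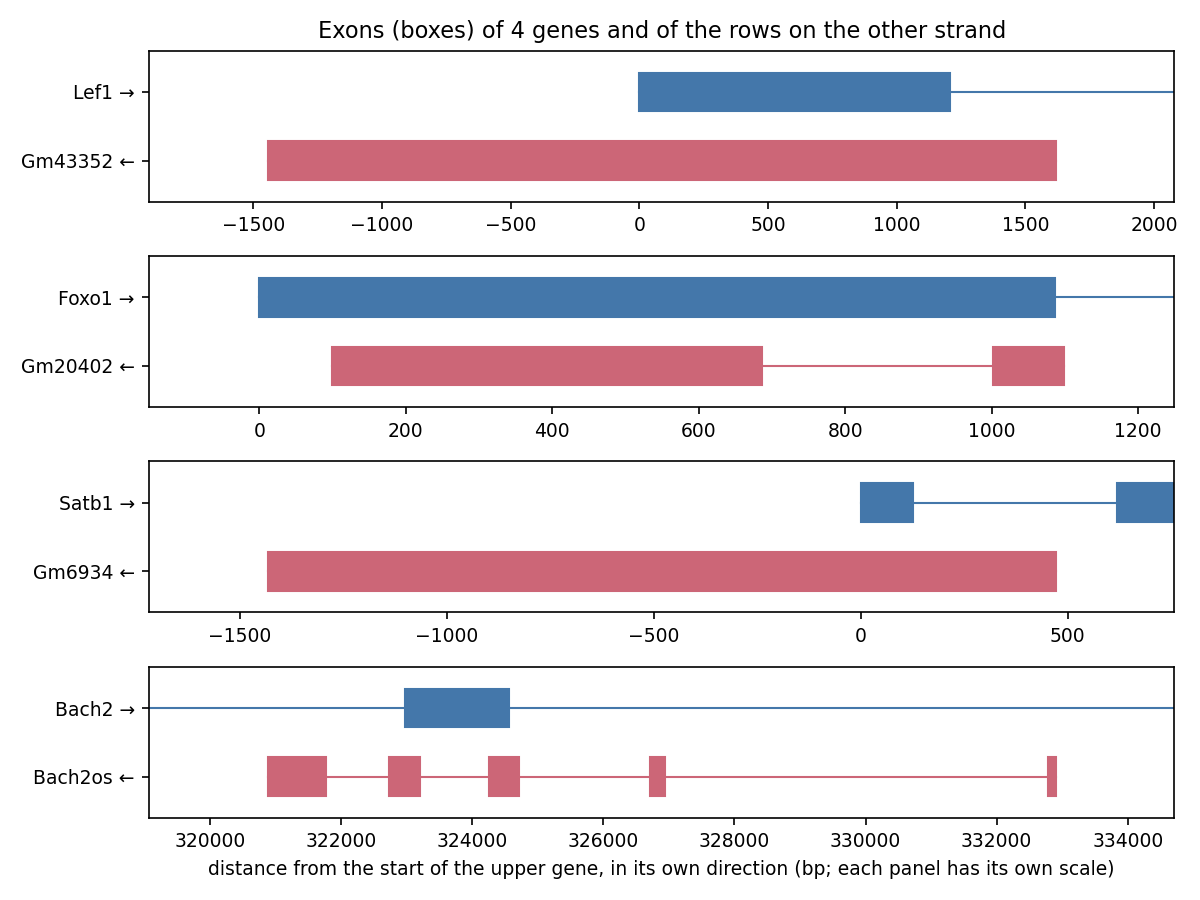
Exon blocks (boxes) of Lef1, Foxo1, Satb1 and Bach2 and of the rows on the other strand, by distance in bp from the start of the upper gene in its own direction, with a separate scale in each panel. Gm43352 runs across the start of Lef1, Gm20402 lies almost wholly in exon 1 of Foxo1, Gm6934 runs across the start of Satb1, and 2 blocks of Bach2os meet 1 exon of Bach2.

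Satb1, the chromatin organizer, lies on chromosome 17 (51736187 to 51833290, minus strand) and counted 193, 128, 125 and 126 read pairs. Opposite its start lies Gm6934 (51832819 to 51834723, plus strand), which is no member and shares the first exon block of Satb1, 128 bp. Gm6934 counted 68, 73, 69 and 46, or 26.1% (21.1 to 31.7), 36.3% (30.0 to 43.2), 35.6% (29.2 to 42.5) and 26.7% (20.7 to 33.8) of the pair. Here the order was reversed in counts in all 4 libraries, with a log2 ratio of -1.15 ± 0.372 (SD, n = 4). Per exon length it was not: the 1905 bp of Gm6934 held 35.7, 38.3, 36.2 and 24.1 counts per kb, against 10.1, 6.73, 6.57 and 6.62 for the 19027 bp of Satb1. This pair was added after its values were known and was not tested. The 3 tested pairs were also chosen with earlier results of these data known, so their tests are a description of them.

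**Figure D2:**
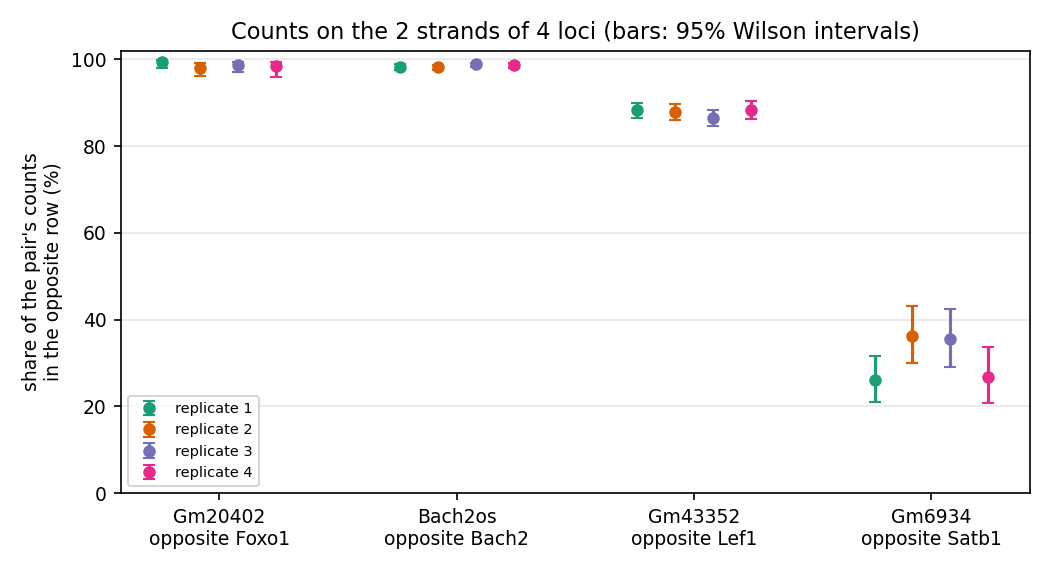
Share of the counts of each pair that was assigned to the opposite row (vertical axis, percent), with 1 point per replicate and 95% Wilson intervals that cover counting error only. Gm20402, Bach2os and Gm43352 hold 86.6% to 99.4% in every library, and Gm6934 holds 26.1% to 36.3%.

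These loci were set beside all pairs of a protein-coding gene and a non-coding gene on the other strand with at least 50 bp of shared exons and a summed mean of 20 counts. Of 1300 such pairs, the opposite row was higher in all 4 libraries in 1103, or 84.8%, and lower in all 4 in 171. Higher opposite rows in 3 of the 4 pairs at member genes are a share near this background, and so no result about the naive factor genes. The log2 ratio over all pairs had a median of 4.89 and quartiles of 2.84 and 6.42. Foxo1 and Gm20402 ranked at position 378 of 1300 by this ratio, Bach2 and Bach2os at 411, Lef1 and Gm43352 at 972 and Satb1 and Gm6934 at 1151. The Foxo1 and Bach2 pairs thus lay between the median and the upper quartile, the Lef1 pair at the lower quartile and the Satb1 pair below it.

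**Figure D3:**
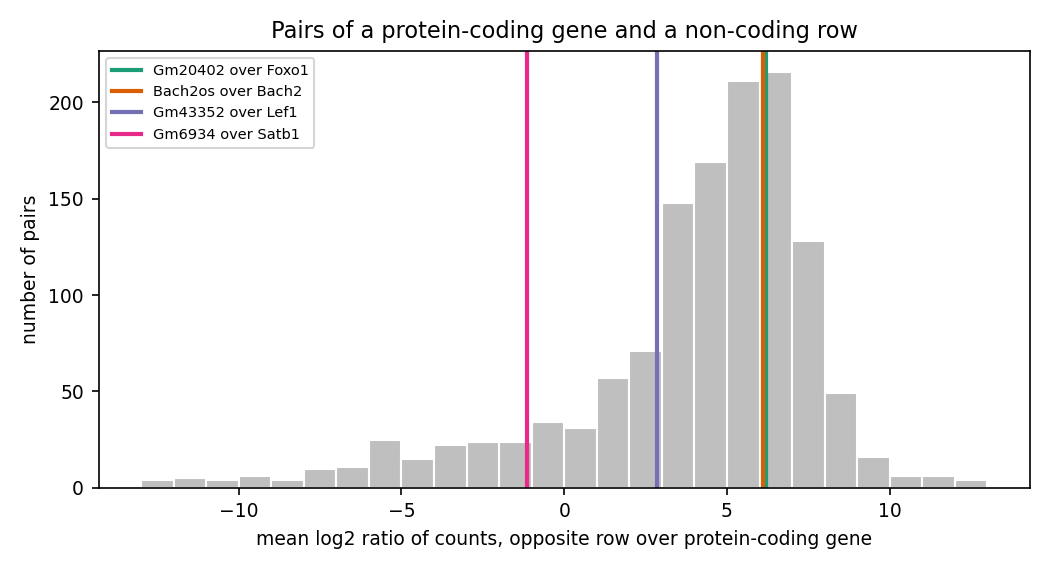
Number of pairs (vertical axis) by mean log2 ratio of counts, opposite row over protein-coding gene, for 1300 pairs, with lines at the 4 pairs of member genes. The lines for Gm20402 over Foxo1 and Bach2os over Bach2 (6.21 and 6.09) lie to the right of the median of 4.89, and those for Gm43352 over Lef1 (2.85) and Gm6934 over Satb1 (-1.15) to its left.

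The other 3 member genes share no exon bases with a row on the other strand. Tcf7, which encodes TCF-1, lies on chromosome 11 (52252371 to 52283014, minus strand) and counted 59, 39, 38 and 24 read pairs, highest in replicate 1 and lowest in replicate 4. The antisense gene A630014C17Rik crosses its start on the other strand, with exons outside those of Tcf7, and counted 40, 40, 39 and 28. Foxp1 on chromosome 6 (98925338 to 99522721, minus strand) counted 53, 49, 32 and 27 over 13751 bp of exons, and 2 rows on its own strand that share exon bases with it, Gm49348 and Gm20696, had 0 in all libraries. Ccr7 on chromosome 11 (99144196 to 99155077, minus strand) counted 24, 15, 17 and 6, the widest relative spread of the 7 genes after Foxo1, and replicate 4 was the lowest.

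Per exon length the members spanned a wide range. The TPM values in replicates 1 to 4 were 11.1, 11.7, 12.7 and 10.5 for Lef1, and 14.9, 10.5, 9.84 and 8.12 for Tcf7. They were 8.02, 5.34, 5.84 and 2.69 for Ccr7, and 6.70, 4.74, 4.46 and 5.88 for Satb1. The paralogs Lef1 and Tcf7 overlapped, as did Ccr7 and Satb1. Foxp1 stood at 2.55, 2.51, 1.58 and 1.74 TPM, Bach2 at 1.79, 2.20, 1.5 and 1.61, and Foxo1 at 0.153, 0.569, 0.392 and 0.307. By mean TPM Lef1 ranked 1553 of 21764 protein-coding genes, Tcf7 1598, Ccr7 2421, Satb1 2432, Foxp1 4343, Bach2 4735 and Foxo1 8860. Among 2566 antisense genes, Bach2os ranked 157, Gm20402 202 and Gm43352 262.

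Neighbours in this order were compared within each library as differences of log2(TPM + 1), in 9 pairs (exact two-sided sign-flip tests, adjusted over the 9). The order was itself set by the mean TPM of these same libraries, which favoured a positive difference in advance. The signs and p-values of these pairs therefore only describe the order and are no separate support for it. In 6 pairs of neighbours the ranges did not overlap, and the difference had the same sign in 4 of 4 libraries with an exact p = 0.13, adjusted 0.161. They were Bach2os over Gm20402 (0.70 ± 0.280), Gm20402 over Gm43352 (0.52 ± 0.230), Gm43352 over Lef1 (4.26 ± 0.107), Tcf7 over Ccr7 (0.91 ± 0.276), Satb1 over Foxp1 (1.06 ± 0.257) and Bach2 over Foxo1 (1.04 ± 0.179; all SD, n = 4). Foxp1 over Bach2 was 0.15 ± 0.135, positive in 4 of 4 with overlapping ranges (exact p = 0.13, adjusted 0.161). Lef1 minus Tcf7 was 0.11 ± 0.346, positive in 3 of 4 (exact p = 0.625, adjusted 0.703), and Ccr7 minus Satb1 was -0.05 ± 0.569, positive in 3 of 4 (exact p = 1). Neither of these 2 differences exceeded its spread. With a replicate left out, Lef1 minus Tcf7 ranged from 0.029 without replicate 3 to 0.27 without replicate 1 (0.030 without replicate 4), Foxp1 over Bach2 was 0.084 without replicate 1, and Ccr7 minus Satb1 turned sign without replicate 4, to 0.23, and lay between -0.18 and -0.12 without one of the others. The size of Bach2 over Foxo1 depends on the pseudocount, at 2.11 with 0.1 in place of 1.

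**Figure D4:**
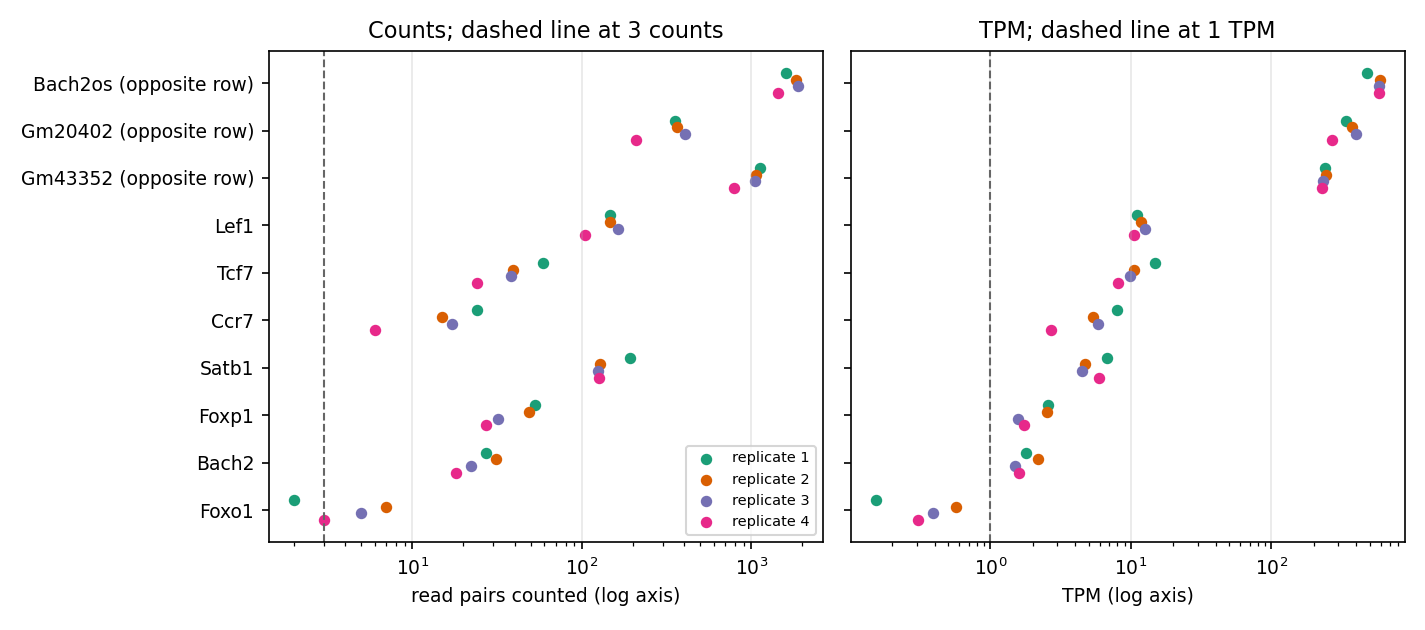
Read pairs counted (left) and TPM (right) of the 10 members on log axes, with 1 point per replicate, ordered by mean TPM. The 3 antisense rows lie between 230 and 589 TPM, Lef1, Tcf7, Ccr7 and Satb1 between 2.69 and 14.9, Foxp1 and Bach2 between 1.5 and 2.55, and Foxo1 below 1 TPM.

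Of the 7 member genes, 6 reached 1 TPM in all libraries, with Foxo1 the exception, where 21.8% of protein-coding genes did so. With the antisense rows it was 9 of 10, against 13.3% of all genes, and 9 of 10 exceeded 3 counts in every library, against 14.8% of all genes. Of 2566 antisense genes 32.7% exceeded 3 counts in every library, and all 3 antisense members did. The median over the 7 genes was 5.45 TPM, and over all protein-coding genes 0.115. Since the members were chosen with results of these data known, these shares are a description of them.

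The replicates were tested for variation beyond that of genes of like abundance (edgeR, goodness of fit with the group mean as sole term). Of 5064 genes tested, 23 passed an adjusted p of 0.05, or 0.454%. Of the 8 members that passed the filter on low counts, 0 did, and 0 had an unadjusted p under 0.05, which 5.13% of genes tested had. Foxo1 and Ccr7 did not pass the filter on low counts. The smallest unadjusted p of a member was 0.0718, for Bach2os (edgeR adjusted p = 1.00), and it was 0.103 for Gm20402 and 0.237 for Satb1. With DESeq2 size factors the member counts were also 0 adjusted and 0 unadjusted. Lef1 and Gm43352 varied little, with an SD of 8.15% and 2.88% of their mean TPM, against 26.5% for Tcf7 and 40.0% for Ccr7, genes with far fewer counts.

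Paralogs show which row of each factor family held the counts. Foxo3, a second FOXO factor of quiescent cells, had 6, 11, 9 and 10 counts and stood above Foxo1, with a difference Foxo1 minus Foxo3 of -0.47 ± 0.176 on the log2(TPM + 1) scale, negative in 4 of 4 libraries with overlapping ranges (-1.14 with a pseudocount of 0.1 in place of 1). Foxo4 had 147, 154, 125 and 135 counts (29.4 TPM ± 4.29) and was the highest FOXO row, while Foxo6 had 1, 0, 0 and 0. Foxo3 and Foxo4 share no exon bases with an opposite-strand gene, while exon 1 of Foxo1 is the site of Gm20402. Foxp4 had 31, 19, 15 and 18 counts, and Foxp1 minus Foxp4 was -0.38 ± 0.254, negative in 4 of 4 with overlapping ranges. Foxp3, the regulatory T cell factor, had 667, 606, 682 and 490 counts (111 TPM ± 3.96) on exons that share 590 bp with Ccdc22. The Ccdc22 row had 0, 1, 6 and 0, and which gene's transcript gave the counts of the Foxp3 row was not tested. Foxp2 had 0 in all.

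Bach1, which like BACH2 binds DNA with small MAF proteins, had 1, 0, 0 and 1 counts, under the floor in every library, and Bach2 minus Bach1 was 1.38 ± 0.208. The difference was positive in 4 of 4 libraries, and its size depends on the pseudocount, at 3.63 with 0.1 in place of 1. Each of these differences had an exact sign-flip p of 0.13 (adjusted 0.156 over 5 paralog pairs). Of the other TCF genes, Tcf7l1 had 16, 8, 17 and 9 counts opposite Gm15401 (12, 8, 11 and 4), and Tcf7l2 had 0 in all.

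Of the genes that FOXO1 is known to act on in naive T cells, Klf2 and S1pr1 were under the floor in every library. Klf2, a factor of quiescence, had 0 counts in all 4 libraries, and S1pr1, the receptor for leaving lymph nodes, had 0, 1, 0 and 0. Il7r, the interleukin-7 receptor gene, had 9, 11, 12 and 7 counts (2.19 TPM ± 0.342). These 3 rows share no exon bases with an opposite-strand gene.

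Around the members, the list of naive state and quiescence genes had 9 of 25 members at 1 TPM in all libraries, against 21.8% of protein-coding genes, and a median of 1.07 TPM. Slfn2, a gene needed for T cell quiescence, stood at 11.8 ± 3.84, Dapl1 at 11.4 ± 4.40 and Pik3ip1, an inhibitor of PI3 kinase, at 5.42 ± 0.475 TPM (SD, n = 4). The activation list had 13 of 16 and a median of 5.38, with Il2 at 75.5 ± 22.6, the transporter gene Slc3a2 at 23.5 ± 1.78 and Tnfrsf4, a costimulatory receptor gene, at 21.8 ± 8.73. The 2 lists hold different genes of different overlap and were not tested against each other.

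The lists around single members were counted in the same way, against the same 21.8%, and nothing particular to them was read from the shares. The TCF and LEF list holds 17 genes: partners, targets and the paralogs Tcf7l1 and Tcf7l2. Of these, 7 reached 1 TPM in all libraries (median 0.818). They were led by the corepressor genes Hdac1 (12.0 ± 2.14), Aes (5.34 ± 1.35) and Ctbp1 (3.12 ± 0.696). The beta-catenin gene Ctnnb1 had 37, 14, 10 and 16 counts opposite Ulk4, which had 5911, 5770, 5932 and 4161. The FOXO1 list holds 16 genes: regulators, targets and the paralogs Foxo4 and Foxo6. Of these, 5 reached 1 TPM in all libraries (median 0.748). Highest were the paralog Foxo4, the 14-3-3 gene Ywhab (7.35 ± 2.63) and the kinase gene Akt1 (6.02 ± 2.22). The BACH2 list holds 13 genes: partners, targets and the paralog Bach1. Of these, 7 reached 1 TPM in all libraries (median 1.78). They were led by Junb (116 ± 10.8), the small MAF gene Maff (40.3 ± 2.19) and Jund (33.0 ± 6.89). Prdm1, a gene that BACH2 represses, had 0 in all. Junb shares 173 bp with Prdx2 and Jund 877 bp with Gm11175 on the other strand. Gm11175 had 22264, 18290, 20488 and 13040 counts where Jund had 109, 73, 69 and 56. Prdx2 had 38, 40, 33 and 29 where Junb had 456, 355, 390 and 279.

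Of the SATB and FOXP families and partners 6 of 9 reached 1 TPM in all libraries (median 4.86), with the chromatin remodeller genes Chd4 (15.5 ± 2.00) and Mta2 (14.3 ± 2.81) after Foxp3. Of 11 genes of CCR7 signalling and lymph node homing 7 did (median 3.93): Ackr4, a scavenging receptor for the CCR7 ligands, stood at 40.05 ± 1.26 on exons that overlap Acad11, S1pr4 at 9.13 ± 2.66 and Gnai2 at 7.51 ± 2.48. Acad11 had 4, 8, 0 and 5 counts where Ackr4 had 332, 314, 317 and 232. The ligand genes Ccl19 and Ccl21a and the chemokine receptor gene Cxcr4 had 0 in all. Of 16 other T cell transcription factor genes 8 did (median 1.86). Highest were Gfi1 at 11.1 ± 1.22, Stat6 at 10.1 ± 0.490 and Gata3 at 5.39 ± 1.68, each overlapping an opposite-strand gene. Gata3 had 44, 35, 21 and 20 counts where Gm13256 on the other strand had 2300, 2218, 2625 and 2048. Opposite Gfi1 (60, 49, 45 and 42 counts), A430072P03Rik had 329, 328, 322 and 200. Opposite Stat6 (70, 65, 61 and 50 counts), Nab2 had 223, 219, 250 and 239. Of the 48 genes of these lists and the naive and activation lists that edgeR tested, 0 passed an adjusted p of 0.05 for replicate variation and 7 had an unadjusted p under 0.05, beside 0.454% and 5.13% of all genes tested. The 7 of 48 are a larger share than 5.13%. All 7 had their lowest TPM in replicate 3, and the cause was not tested.

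**Figure D5:**
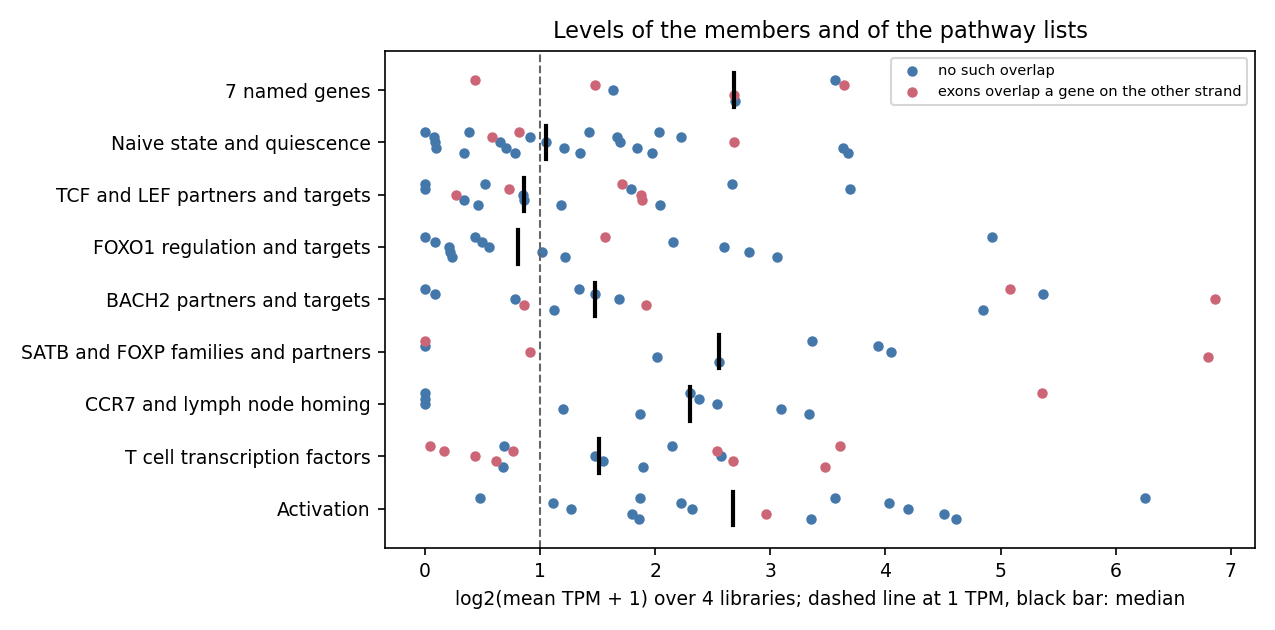
log2(mean TPM + 1) over 4 libraries (horizontal axis) of the 7 member genes and of 8 lists, with 1 point per gene, red where it shares exon bases with an opposite-strand gene, and a black bar at the median. The member genes' median (5.45 TPM) lies near that of the activation list (5.38) and above that of the naive and quiescence list (1.07).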

How the data were processed

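RNA of mouse Th2 cells was measured in 4 libraries of 1 group. The authors' deposited tables hold raw counts, not normalized, of the read pairs at each gene, made with featureCounts 1.4.6-p4 (both ends mapped, strand setting 1, exons summed by gene, GENCODE vM13) per the file headers, on mm10. The deposited tables also give another value, exon length (bp). The aligner's version is not given in the sources used here. Totals were 1785970 to 2271993. Wilson intervals and the floor of 3 counts describe counting error alone, because without molecular identifiers PCR copies cannot be told from separate molecules.

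GENCODE vM21 gave names and types (224 of 50600 IDs unmatched) and transcript sequences; promoters are RefSeq's (GRCm38.p6). TPM was computed from counts and length. Coordinates are those of the tables. Genes overlap where exons on opposite strands have a base in common. Replicate variation was tested in edgeR 4.0.16 (R 4.3.3, TMM, filterByExpr, trended dispersion, Benjamini-Hochberg over all genes). It was also run on simulated counts drawn with the same dispersion for every gene. The 200 changed genes there excluded those with low counts, so that run cannot speak for rows such as Foxo1 and Ccr7. DESeq2 1.42.0 gave size factors. Other steps used SciPy 1.17.1 and pandas 2.3.3 in Python 3.11.15, with figures from Matplotlib 3.10.9.

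Members and lists were chosen with earlier results of these data known. Named are all members, the genes sharing their exons, paralogs, FOXO1 targets and the 3 highest genes of each list. A630014C17Rik, Ctnnb1, Ulk4, Gm13256, A430072P03Rik, Nab2 and the genes at 0 were named after their values were seen. So were Cd247, the markers detected outside the T cell list and the pairs in the closing section. Some genes under this rule are not reported here. Likeness of patterns over libraries was not measured, since 4 replicates have no conditions to follow. Alternatives were another pseudocount, TMM-normalized CPM per kb, counts per kb, TPM without 2 ribosomal RNA rows (CT010467.1 and Gm42418), other overlap, count and TPM thresholds, other edgeR settings, and fits without 1 replicate at a time. Chosen after seeing the data were pairs without further overlaps and each gene counted once.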

Additional observations from a re-analysis of the deposited data

Results flagged for a closer look

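In 4 libraries a value was listed when its gap to the nearest library, as a share of the whole range, passed the 95% critical value of Dixon's test, which chance does for about 1 in 20 quantities. Of 65 quantities checked 6 were listed. For Bach2os the gap was 0.944 of the range, with 482 TPM in replicate 1 against 583 to 589 in the others. For Hdac1 it was 0.840, with 8.79 TPM in replicate 2 against 12.7 to 13.4. For Foxo6 and S1pr1, and for the markers Lyz2 and Cd8a, it was 1, each from 1 count in 1 library and 0 in the others.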

How the results depend on the processing

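No paired analysis was possible because the series has 1 group. The 18 alternatives for the 3 pair ratios and the 30 for the 5 paralog differences kept their direction, and no sign-flip test could pass 0.05. For neighbours in the order of levels 61 of 62 did; Ccr7 minus Satb1 ranged from -0.18 to 0.23 with a replicate left out, turning sign without replicate 4. Of 60 alternatives for the members' levels 9 moved by more than 1 SD, 8 of them in TMM-normalized CPM per kb, a lower scale on which Lef1 stood at 7.59, and 1 for Gm43352 without the ribosomal RNA rows (249 TPM). The pairs with a higher opposite row numbered 728 of 827 (88.0%) with at least 200 bp shared, 838 of 1018 (82.3%) where the row overlapped no other gene, and 1103 to 1107 with a replicate left out. Genes varying between replicates numbered 15 with every gene that had a count, 32 with a common dispersion (0 of the members) and 7 to 20 with a replicate left out, the fewest without replicate 4. In these settings 0 members passed an adjusted p of 0.05, and Bach2os, tested over all genes, had unadjusted p = 0.0447 without replicate 3 and 0.0448 without replicate 4 (edgeR). The rows of Foxo1, Bach1, Klf2 and S1pr1 lie near or under 3 counts, and the cause of these low counts was not tested.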

Other observations

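Opposite rows were also read at other genes of T cell state, chosen after their values were seen. In the naive state and quiescence list all 3 pairs had the higher row on the opposite strand: Gm15441 had 349, 344, 345 and 238 counts where Txnip, an inhibitor of glucose uptake, had 2, 0, 2 and 4; Gm12592 had 621, 616, 636 and 440 where Pik3ip1 had 31, 36, 35 and 26; and Gm20033 had 90, 95, 98 and 71 where Klf3, a repressor related to Klf2, had 15, 17, 8 and 8. Among T cell transcription factors the opposite row was higher in 5 of 6 pairs, the exception being Gm15417 with 6, 11, 12 and 6 counts against 30, 37, 37 and 41 for Zbtb7b. Gm26626, opposite Runx1, had 655, 679, 681 and 528 counts against 12, 9, 3 and 10. Gm11802, opposite Tox, had 389, 391, 373 and 273 against 2, 4, 3 and 5. Gm26577, opposite Myb, had 141, 140, 113 and 99 against 0, 3, 2 and 1. The opposite row was higher in 2 of 3 pairs of the TCF and LEF list, 1 of 2 of the SATB and FOXP list and 0 of 2 of the paralogs. These counts stand beside a background of 84.8% over all pairs.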
